A study of Mus musculus with 9 samples.

Results

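The inflammatory cytokine genes Il18, Il33, Il1a, Il1b, Il6, Il15, Il34, Csf1, Tnf and Tnfsf13b were followed through ageing of the mouse seminal vesicle, a gland whose secretion forms a large portion of semen. The genes were chosen by name, with earlier results of these data known. Each symbol matched 1 row of the count table through GENCODE mouse release M21, which gave 10 of 53379 genes. Total RNA was sequenced from seminal vesicle at 3, 13 and 21 months, with 3 libraries at each age and 9 in all. The labels give no strain, genotype or treatment, and do not say whether the 3 libraries of an age came from separate animals, so p-values measure the spread between libraries, which may be partly technical.

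These cytokines carry signals between tissue cells and immune cells. Il18, Il33, Il1a and Il1b belong to the interleukin 1 family, whose receptors signal through the adaptor MyD88 to NF-kB. The precursors of interleukin 18 and interleukin 1 beta are cut by caspase-1 within inflammasomes before they signal, while interleukin 33 is held in the nucleus of epithelial, stromal and endothelial cells and acts as an alarm signal once cells are damaged. Csf1 and Il34 encode ligands of the macrophage receptor Csf1r, Il15 sustains natural killer cells and memory T cells, Tnfsf13b encodes the B cell survival factor BAFF, Tnf encodes tumour necrosis factor, and Il6 signals through the shared receptor chain gp130.

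The 9 libraries held between 16536160 and 24791943 counts, so that 3 counts in 1 library stand for 0.121 to 0.1814 CPM (counts scaled to the library total). A pair of 21-month libraries stood apart from the rest. The 6 prostate markers summed to 72480 TMM-scaled CPM in replicate 1, against 4.216 in replicate 2 and 1.589 in replicate 3. The 7 adipocyte markers summed to 165.3, 1427 and 1.135 in replicates 1, 2 and 3, against 1.449 to 17.95 at 3 months. Levels below are TMM-scaled CPM, in which 3 counts are 0.108 in 21-month replicate 2 and 0.213 in 3-month replicate 2. At 21 against 3 months, scaling by library totals alone moved the middle of all tested genes up by 0.608 on the log2 scale, so changes are relative to TMM. Each result at 21 months was also computed with replicate 3 as the only library of that age, which is then assumed to vary like the other ages. In bulk tissue, fewer cells of a type and less RNA per cell cannot be told apart.

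Il18 was the only 1 of the 10 cytokine genes called changed, and it was called at 21 against 3 months, as a rise. Il33, Tnf and Tnfsf13b were higher in every 21-month library than in any 3-month library, and Il15 was lower, but none of these 4 passed the threshold. Of the 10 genes, 8 had enough counts to be tested and Il1a and Il6 did not. At 21 against 3 months 1 of the 8 was called higher and 0 lower at an adjusted p under 0.05 (edgeR quasi-likelihood F test with Benjamini-Hochberg adjustment over all 16067 tested genes), where 1.26% of all tested genes were called higher and 0.766% lower, or 2.02% in either direction. An unadjusted p under 0.05 was reached by 6 of the 8, against 24.4% of all tested genes. The median log2 fold change of the 8 genes was 0.74, against 0.0074 for all tested genes, and it was 0.77 with 21-month replicate 3 alone, where 0 of the 8 were called. The libraries of 4 of the 8 genes lay wholly above those at 3 months, and those of 1 wholly below. Over all tested genes these shares were 14.8% and 14.7%. The 10 genes were listed with earlier results of these data known, and Il18, Il1b, Tnf and Tnfsf13b passed the low-count filter because of the later ages. The values of the 8 beside those of all genes are therefore a description.

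**Figure D1:**
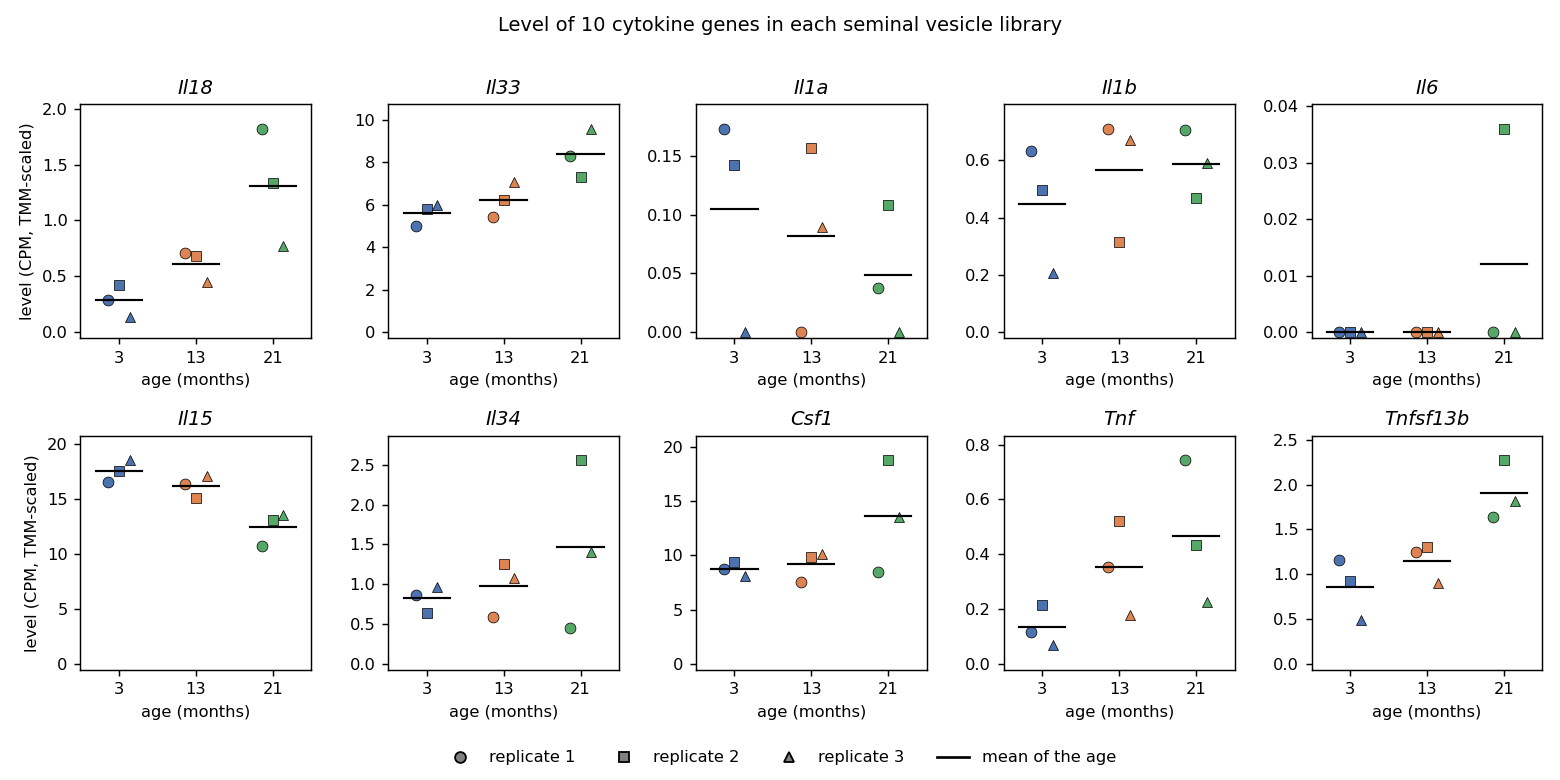
Level of each cytokine gene in each library, in TMM-scaled CPM from 0, by age in months; symbols mark the replicate and bars the mean of 3 libraries. Il18 rose from a mean of 0.284 to 1.31 between 3 and 21 months, and Il6 had a count in 1 library only.

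Il18 (ENSMUSG00000039217, GRCm38 chromosome 9, 50554827 to 50581840, plus strand) encodes interleukin 18, which prompts T and natural killer cells to make interferon gamma. The 3-month libraries (replicates 1, 2 and 3) held 5, 6 and 2 counts of it, the 13-month libraries 12, 13 and 10, and the 21-month libraries 49, 37 and 17. In TMM-scaled CPM the 3-month values were 0.288, 0.426 and 0.138, the 13-month values 0.709, 0.678 and 0.448, and the 21-month values 1.82, 1.33 and 0.772. Every 13-month library was above every 3-month library, and every 21-month library above every 13-month library, with 21-month replicate 3 nearest to the younger ages. The counts are small, and the exact Poisson 95% interval of the 17 counts in 21-month replicate 3 ran from 9.90 to 27.2 and that of the 13 counts in 13-month replicate 2 from 6.92 to 22.2. Such intervals cover counting error only.

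The mean level of Il18 rose from 0.284 ± 0.144 (SD, n = 3) in the youngest libraries to 1.31 ± 0.524 in the oldest. On the log2 scale this was 2.19 ± 0.46 (SE; adjusted p = 0.0484 by edgeR). The 13-month mean was 0.612 ± 0.143, and neither step alone was called: the log2 fold change was 1.08 ± 0.50 at 13 against 3 months (adjusted p = 0.704) and 1.11 ± 0.40 at 21 against 13 months (adjusted p = 0.257). The gene passes the filter on low counts through the older libraries, since no 3-month library reached 10 counts, so that a fall could hardly have been seen. The call at 21 against 3 months lay close to the threshold and ended under 11 of 19 alternatives, with adjusted p from 0.00787 to 0.438. It was lost when any 1 library other than 21-month replicate 3 was left out, with adjusted p between 0.0605 (without 21-month replicate 1) and 0.217 (without 3-month replicate 1). With 21-month replicate 3 alone the log2 fold change was 1.43 (adjusted p = 0.438).

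**Figure D2:**
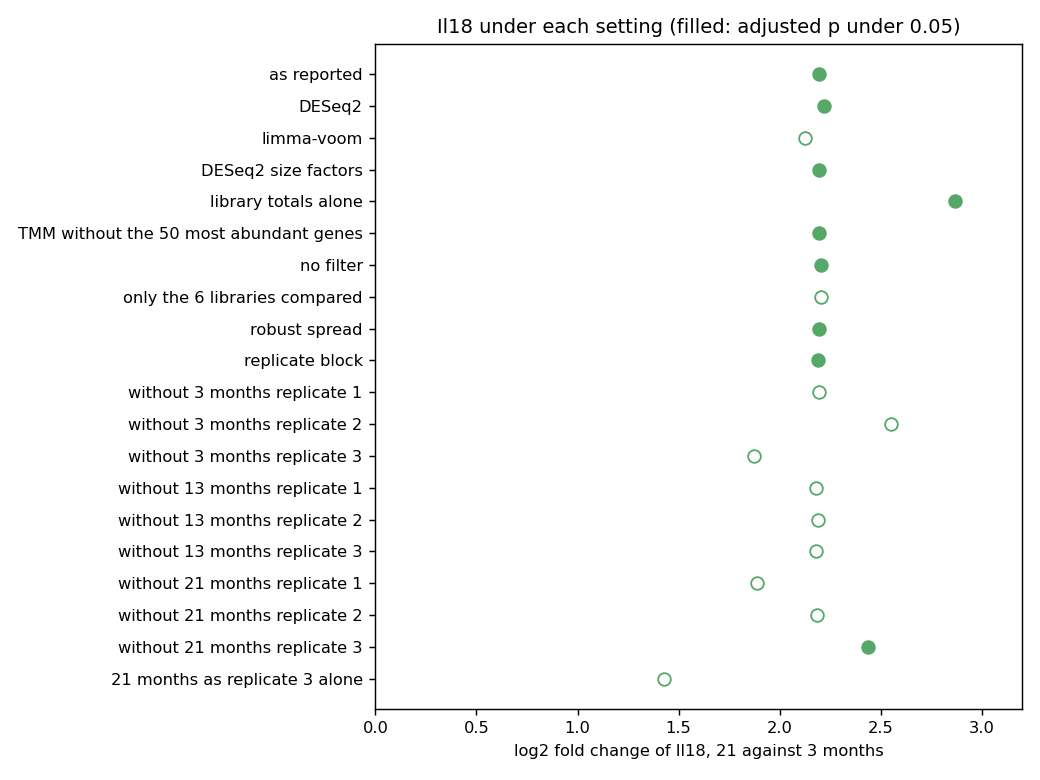
Log2 fold change of Il18 at 21 against 3 months as reported and under each of 19 alternatives; filled points have an adjusted p under 0.05. All values lie between 1.43 and 2.87, and those without a 3-month or a 13-month library are open.

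The genes whose profile over the 9 libraries was most like that of Il18 were Sp140, Arhgap25, Samd5, Arhgap4 and Arhgap30. Likeness was the root mean square difference of log2 CPM, each gene centred on its own mean, among 11264 candidate genes. It was 0.322 for Sp140, 0.333 for Arhgap25, 0.386 for Samd5, 0.388 for Arhgap4 and 0.388 for Arhgap30, where Il18 itself varied by 0.870 around its mean. Since they were picked for following Il18, which rises with age, a rise in these genes was set by the choice, and their values are a description. At 21 against 3 months Arhgap25 differed by 1.44 ± 0.26 on the log2 scale (adjusted p = 0.0400 by edgeR), Arhgap4 by 1.61 ± 0.30 (adjusted p = 0.0400) and Arhgap30 by 1.34 ± 0.19 (adjusted p = 0.0202), while Sp140 had 1.59 ± 0.43 (adjusted p = 0.0741) and Samd5 1.08 ± 0.28 (adjusted p = 0.0702).

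Il33 (ENSMUSG00000024810, chromosome 19, 29925114 to 29960718, plus strand), the gene of the nuclear alarm cytokine, was among the more abundant of the 10. The 3-month libraries had 5.01, 5.82 and 6.003 CPM, the 13-month libraries 5.44, 6.21 and 7.07, and the 21-month libraries 8.28, 7.32 and 9.58. Counts were 87, 82 and 87 in the youngest and 223, 203 and 211 in the oldest. The 3- and 13-month libraries overlapped, and the 21-month libraries lay above both. The mean was 5.61 ± 0.528, 6.24 ± 0.817 and 8.39 ± 1.14 CPM at the 3 ages (SD, n = 3). The log2 fold change was 0.58 ± 0.16 at 21 against 3 months, with an adjusted p of 0.0829 by edgeR, which missed the threshold, and 0.78 (adjusted p = 0.187) with 21-month replicate 3 alone. It was called with DESeq2 (0.58, adjusted p = 0.0419) and with library totals alone (1.17, adjusted p = 0.0124). At 13 against 3 months it was 0.16 ± 0.17 (adjusted p = 0.901) and at 21 against 13 months 0.42 ± 0.16 (adjusted p = 0.271). The profiles nearest to Il33 were those of Junb, Relb, Rnf44, Trak1 and Evpl, with root mean square differences of 0.108, 0.119, 0.137, 0.138 and 0.145, where Il33 varied by 0.280 around its mean. They too were chosen for their likeness, so their log2 fold changes at 21 against 3 months are a description: Trak1 had 0.62 ± 0.12 (adjusted p = 0.0427), and the others had adjusted p from 0.0593 for Junb to 0.154 for Evpl.

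The promoters of Il18, Il33, Tnf and Tnfsf13b are shown because these genes were higher in all 21-month libraries than in all 3-month libraries. Each sequence is RefSeq's, on GRCm38.p6, from 250 bases before to 50 after an annotated start, in the direction of the gene; Il33 and Tnfsf13b have 2 annotated starts each, and of the overlapping Tnfsf13b windows the second is printed, which also holds the match found in the first. The table holds 10 windows for 8 of the 10 genes, and none was found for Il15 and Il34. Capitals mark matches, on either strand, of 5 motifs: NF-kB (3 G, any 2 bases, 3 T and 2 C), AP-1 (TGANTCA), the core of sites of the myeloid factor PU.1 (GAGGAA), a pair of interferon-stimulated element repeats (GAAA, any 2 bases, GAAA) and the TATA box (TATAAA).
Il18, chr9:50554450-50554749, plus strand: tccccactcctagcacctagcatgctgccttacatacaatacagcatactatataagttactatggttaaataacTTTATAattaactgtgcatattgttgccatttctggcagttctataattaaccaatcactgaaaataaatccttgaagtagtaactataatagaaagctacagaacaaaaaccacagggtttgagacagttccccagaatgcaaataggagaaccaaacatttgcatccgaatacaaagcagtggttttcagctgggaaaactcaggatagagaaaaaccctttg
Il33 first start, chr19:29924863-29925162, plus strand: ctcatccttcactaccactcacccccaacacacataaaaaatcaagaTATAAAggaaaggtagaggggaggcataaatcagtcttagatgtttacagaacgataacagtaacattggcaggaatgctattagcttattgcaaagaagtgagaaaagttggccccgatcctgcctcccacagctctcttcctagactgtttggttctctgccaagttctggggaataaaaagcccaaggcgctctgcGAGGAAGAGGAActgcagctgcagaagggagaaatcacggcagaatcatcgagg
Il33 second start, chr19:29945540-29945839, plus strand: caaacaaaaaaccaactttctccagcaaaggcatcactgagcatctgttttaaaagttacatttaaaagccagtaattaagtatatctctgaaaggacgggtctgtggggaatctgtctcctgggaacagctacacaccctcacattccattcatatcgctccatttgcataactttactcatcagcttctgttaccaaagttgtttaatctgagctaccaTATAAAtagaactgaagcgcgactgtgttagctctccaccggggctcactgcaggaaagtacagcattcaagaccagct
Tnf, chr17:35201958-35202257, minus strand: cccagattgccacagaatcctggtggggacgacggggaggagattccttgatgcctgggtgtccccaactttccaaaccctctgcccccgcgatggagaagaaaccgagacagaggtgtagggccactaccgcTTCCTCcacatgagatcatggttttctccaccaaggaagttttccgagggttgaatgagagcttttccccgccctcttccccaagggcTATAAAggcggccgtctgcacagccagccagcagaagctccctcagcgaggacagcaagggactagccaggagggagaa
Tnfsf13b second start, chr8:10006383-10006682, plus strand: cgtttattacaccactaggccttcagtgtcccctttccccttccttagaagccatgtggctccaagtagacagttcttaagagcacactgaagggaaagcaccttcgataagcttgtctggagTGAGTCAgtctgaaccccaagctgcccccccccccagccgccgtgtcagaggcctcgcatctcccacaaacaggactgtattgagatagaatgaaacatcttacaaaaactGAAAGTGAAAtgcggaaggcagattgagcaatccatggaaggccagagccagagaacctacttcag
Among 32851 promoter windows of the same length 1.63% held the NF-kB letters, 7.81% those of AP-1, 28.3% GAGGAA, 3.44% the interferon element and 13.6% TATAAA. The window of Tnf and that of the second start of Il33 held TATAAA from base 222 of the window, 29 bases before the start. The first Il33 window held GAGGAA from base 247 and again from base 253, end to end across the start, and TATAAA from base 48. The Tnf window held GAGGAA on the opposite strand from base 134, and that of Il18 held TATAAA on the opposite strand from base 76. The Tnfsf13b window held the AP-1 letters from base 124 and the interferon element from base 235. A match describes letters only.

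Il1a and Il1b, which encode interleukin 1 alpha and beta, were sparse at every age. Il1b (chromosome 2, 129364570 to 129371139) had 11, 7 and 3 counts in the 3-month libraries, 12, 6 and 15 in those at 13 months and 19, 13 and 13 in the oldest, and the ages overlapped in CPM. Il1b passed the low-count filter because of the later ages. Its log2 fold change at 21 against 3 months was 0.37 ± 0.45 (adjusted p = 0.633 by edgeR), and 0.038 to 0.73 when 1 library was left out, with the lowest value without 3-month replicate 3 and the highest without 3-month replicate 1. Il1a (chromosome 2, 129299610 to 129309972) had 5 counts over the 3-month libraries, 5 over the 13-month libraries and 4 over the 21-month libraries, and was not tested. Each of these genes is overlapped on the opposite strand by exons of a noncoding gene, Il1bos over Il1b and Gm14023 over Il1a, each with 59 counts in all, and whether reads were assigned by strand is not given in the sources used here. Il6 (chromosome 5, 30013114 to 30019981) had 1 count in 9 libraries, in 21-month replicate 2, so that no change was detectable at this depth.

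Tnf and Tnfsf13b, of the tumour necrosis factor superfamily, had higher levels in each 21-month library than in each 3-month library. Tnf (chromosome 17, 35199381 to 35202007, minus strand) had 2, 3 and 1 counts in the 3-month libraries, 6, 10 and 4 in the 13-month ones and 20, 12 and 5 in the 21-month ones. It passed the low-count filter because of the later ages, so that a fall could hardly have been seen. Its lowest 21-month value, 0.227 CPM in replicate 3, lay close to its highest 3-month value, 0.213 in replicate 2. The 13- and 21-month libraries overlapped. The log2 fold change was 1.81 ± 0.65 between the youngest and oldest libraries (adjusted p = 0.135 by edgeR). It was 1.36 ± 0.70 (adjusted p = 0.749) for the step to 13 months. The later step gave 0.45 ± 0.52 (adjusted p = 0.709). With 21-month replicate 3 alone it was 0.77 (adjusted p = 0.813) at 21 against 3 months and -0.58 (adjusted p = 0.999) at 21 against 13 months. Tnfsf13b (chromosome 8, 10006467 to 10039072) had 1.15, 0.922 and 0.483 CPM in the 3-month libraries, 1.24, 1.30 and 0.895 in those at 13 months and 1.63, 2.27 and 1.82 in the oldest. Its 21-month libraries lay above all 6 younger libraries, which overlapped. With 20, 13 and 7 counts in the 3-month libraries, Tnfsf13b also passed the low-count filter because of the later ages. The log2 fold change at 21 against 3 months was 1.14 ± 0.33 (adjusted p = 0.0846 by edgeR), 1.15 (adjusted p = 0.0487) with DESeq2 and 1.07 (adjusted p = 0.439) with 21-month replicate 3 alone. Beside it, the summed level of 6 B cell markers ran from 0.213 to 0.461 CPM at 3 months and was 16.12, 6.52 and 1.68 in 21-month replicates 1, 2 and 3, and the 7 plasma cell markers ran from 39.3 to 45.3 and from 317 to 743. Their part in the level of Tnfsf13b was not tested.

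Csf1 and Il34, the ligands of Csf1r, were highest in 21-month replicate 2. Csf1 (chromosome 3, 107741048 to 107760469) had 8.75, 9.37 and 8.07 CPM in the youngest libraries, 7.57, 9.81 and 10.1 at 13 months, and 8.47, 18.8 and 13.5 in the oldest. Il34 (chromosome 8, 110741829 to 110805924) had 0.864, 0.639 and 0.966 CPM in the youngest, 0.591, 1.25 and 1.07 at 13 months, and 0.446, 2.56 and 1.41 in the oldest. For both genes 21-month replicate 1 lay within or below the range of the 3-month libraries. Exons of the noncoding genes Gm15894 and Gm15895, with 5 and 1 counts in all, overlap Il34 on the opposite strand. The log2 fold change at 21 against 3 months was 0.64 ± 0.26 for Csf1 (adjusted p = 0.166 by edgeR). It was 0.83 ± 0.56 for Il34 (adjusted p = 0.386 by edgeR), and 0.14 without 21-month replicate 2 or 1.27 without 21-month replicate 1. That of Csf1 was 0.89 (adjusted p = 0.0382) without 21-month replicate 1, 0.33 (adjusted p = 0.451) without replicate 2, 0.63 (adjusted p = 0.249) with replicate 3 alone, and 1.21 (adjusted p = 0.0142) with library totals alone. Replicate 2 also held the most fibroblast transcripts (8 markers summed to 854 CPM, against 411 and 425 in replicates 1 and 3), adipocyte transcripts and macrophage transcripts (14 markers summed to 329 CPM, against 191 and 188). Their part in these levels was not tested.

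Il15 (chromosome 8, 82331632 to 82403222, minus strand) was the most abundant of the 10 per length of exon at every age and the only tested one with a negative log2 fold change at 21 against 3 months. The youngest libraries had 16.53, 17.53 and 18.49 CPM, the 13-month libraries 16.38, 15.07 and 17.05, and the oldest 10.73, 13.08 and 13.53. Every 21-month library lay below all younger libraries, which overlapped. The log2 fold change was -0.49 ± 0.12 (adjusted p = 0.0635 by edgeR) at 21 against 3 months and -0.38 ± 0.12 (adjusted p = 0.221) at 21 against 13 months. DESeq2 called it lower at 21 against 3 months (-0.49, adjusted p = 0.0170), it was -0.37 (adjusted p = 0.439) with 21-month replicate 3 alone, and with library totals alone the sign turned to 0.091 (adjusted p = 0.691). Its receptor chain Il15ra, which presents interleukin 15 to neighbouring cells, had -0.36 ± 0.14 (adjusted p = 0.158), or 0.23 with library totals alone.

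**Figure D3:**
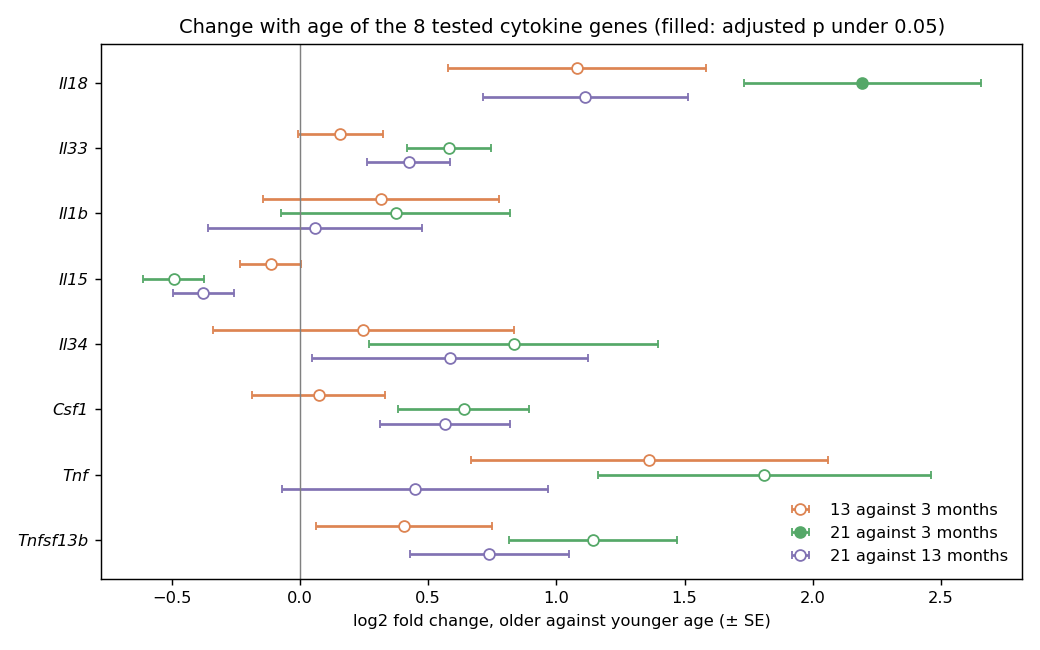
Log2 fold change of the 8 tested cytokine genes in each age comparison, with bars of 1 SE; filled points have an adjusted p under 0.05. The filled point is Il18 at 21 against 3 months (2.19), and Il15 lies below 0 in all 3 comparisons.

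Levels of different genes were compared as TMM-scaled CPM per kilobase of annotated exon. At 3 months Il15 stood at 7.75 ± 0.434 (SD, n = 3), above Il33 at 1.94 ± 0.183 and Csf1 at 1.65 ± 0.123, whose libraries overlapped. The next, Il34 at 0.420 ± 0.0855, lay below Csf1 in all libraries, and from Il34 down through Il18, Il1b, Tnfsf13b, Tnf and Il1a to Il6 each neighbour in the order overlapped the next. At 21 months Il15 stood at 5.50 ± 0.664 and Il33 at 2.91 ± 0.394, with Csf1 at 2.57 ± 0.976 and then Il18 at 1.27 ± 0.509. Il33, Csf1, Il18, Il34, Il1b, Tnf and Tnfsf13b each overlapped the next in that order.

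No cytokine gene was called at 13 against 3 months or at 21 against 13 months. At 13 against 3 months edgeR called 0 of the 8, with 0 at an unadjusted p under 0.05, and DESeq2 called 0. Of all tested genes 0.0436% were called higher and 0.411% lower, or 0.454% in either direction, and 7.24% had an unadjusted p under 0.05. Il18 was the 1 gene of the 8 with all 13-month libraries above the 3-month ones and none was below, against 8.18% and 9.33% of all tested genes. The median log2 fold change of the 8 was 0.28, against 0.0078 for all genes. At 21 against 13 months edgeR called 0 of the 8, with 5 at an unadjusted p under 0.05, and DESeq2 called 0, where 0.00622% of all tested genes were called by edgeR and 15.7% had an unadjusted p under 0.05. All libraries were higher for 3 of the 8 (Il18, Il33 and Tnfsf13b) and lower for 1 (Il15), against 7.99% and 8.25% of all tested genes. The median was 0.51, against 0.0047 for all genes. The comparisons share libraries, so these medians are not independent.

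The ratio of a cytokine to its partner within a library does not depend on how libraries are scaled. The log2 ratio of Il18 to Il18bp counts, the latter the gene of the secreted protein that binds and blocks interleukin 18, was -4.70, -4.14 and -5.32 in the youngest libraries, -3.19, -3.16 and -3.48 at 13 months, and -1.81, -1.95 and -2.77 in the oldest. The 3 ages did not overlap, and the ratio was higher at each later age. The difference was 2.54 between the youngest and oldest, 1.44 for the first step and 1.10 for the second. Each had p = 0.1 by exact permutation (two-sided), which is the lowest value possible with 3 libraries a group, and an adjusted p of 0.4 over the 12 ratio comparisons. With 21-month replicate 3 alone the first was 1.95 and the last 0.51. Il18bp itself had 7.70 ± 0.753 CPM (SD, n = 3) in the youngest and 5.67 ± 0.660 in the oldest libraries, with a log2 fold change of -0.44 ± 0.16 (adjusted p = 0.139 by edgeR), or 0.19 with library totals alone.

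The other ratios overlapped between ages. The log2 ratio of Il33 to Il1rl1, which encodes the interleukin 33 receptor ST2, was 1.77 ± 0.502, 1.37 ± 0.291 and 1.58 ± 0.825 (SD, n = 3) from the youngest to the oldest age, and that of Csf1 to Il34 was 3.37 ± 0.397, 3.26 ± 0.337 and 3.43 ± 0.683. The smallest exact permutation p of these 6 comparisons was 0.4, or 0.8 adjusted over the 12 tests. Il1rn, the gene of the interleukin 1 receptor antagonist, had 0 counts in the 3-month libraries, 2 in all at 13 months and 5, 9 and 0 in 21-month replicates 1, 2 and 3. The log2 ratio of Il1a plus Il1b to Il1rn, which at 3 months rests on the pseudocount of 0.5, was 3.97 ± 1.05, 3.90 ± 1.73 and 2.48 ± 2.04 (smallest exact permutation p = 0.3, adjusted 0.8).

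**Figure D4:**
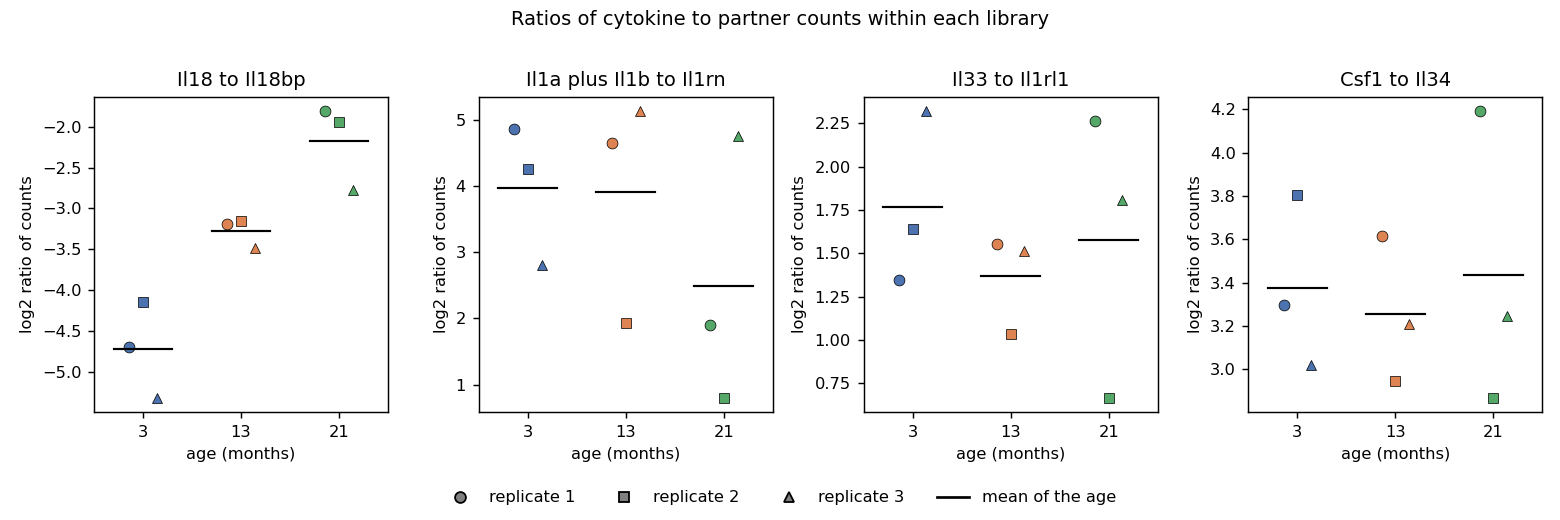
Log2 ratio of cytokine to partner counts in each library (pseudocount 0.5), by age in months; symbols mark the replicate and bars the mean of 3 libraries. The Il18 to Il18bp ratio runs from a mean of -4.72 at 3 months to -2.18 at 21 months with no overlap between ages, while the libraries of the other 3 ratios overlap.

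Some receptors and regulators of these cytokines were called higher at 21 against 3 months, and none lower. The lists of such genes were also chosen with earlier results of these data known, so their values beside those of all genes are a description. Of 17 receptor genes 15 were tested and 4 rose, against 1.26% of all tested genes, with a median log2 fold change of 0.42 over the 15 and 0.0074 over all genes. Il6ra, the binding chain of the interleukin 6 receptor, had a mean of 2.66 ± 0.689 CPM in the youngest and 8.38 ± 2.93 in the oldest libraries (SD, n = 3), a rise of 1.66 ± 0.35 on the log2 scale (adjusted p = 0.0480 by edgeR). Il2rg, the common gamma chain used by interleukin 15, rose by 1.79 ± 0.35 on the log2 scale (adjusted p = 0.0426). Il2rg, with 4 to 5 counts in the 3-month libraries, and Ptprz1, with 4 to 8, passed the low-count filter because of the later ages, and a decrease had little chance of being called. Tnfrsf1b, the second receptor of tumour necrosis factor, rose by 1.37 ± 0.28 (adjusted p = 0.0447). Ptprz1, a phosphatase that binds interleukin 34, rose by 4.42 ± 0.90 (adjusted p = 0.0455), with 547, 109 and 58 counts in 21-month replicates 1, 2 and 3 against 4 to 8 in the 3-month libraries. The highest of these is the library with the prostate transcripts, and without it the log2 fold change of Ptprz1 was 2.98 (adjusted p = 0.0255). Csf1r had 0.96 ± 0.26 (adjusted p = 0.0746), Tnfrsf13b, a BAFF receptor of B and plasma cells, 1.34 ± 0.33 (adjusted p = 0.0681) and Tnfrsf1a 0.42 ± 0.15 (adjusted p = 0.133), and were not called. With 12, 6 and 5 counts in the 3-month libraries, Tnfrsf13b also passed the low-count filter because of the later ages. The interleukin 18 receptor chains Il18r1 and Il18rap had -0.32 ± 0.29 (adjusted p = 0.529) and -0.35 ± 0.39 (adjusted p = 0.609).

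Of 8 antagonist and decoy genes 7 were tested and 2 rose, against 1.26% of all tested genes, with a median of 0.11. Socs3, a feedback inhibitor of Jak and Stat signalling, rose by 2.05 ± 0.36 on the log2 scale (adjusted p = 0.0329 by edgeR), with means of 0.557 ± 0.207 and 2.30 ± 0.303 CPM (SD, n = 3). The 3-month libraries held 6, 8 and 11 counts of Socs3, so it passed the low-count filter because of the later ages. A decrease in Socs3 had little chance of being called. The mean of Tnfaip3, the gene of the NF-kB inhibitor A20, rose from 3.89 ± 0.881 to 7.42 ± 0.872 (log2 0.93 ± 0.20, adjusted p = 0.0485). Il1r2, a decoy receptor, had -0.80 ± 0.39 (adjusted p = 0.237), Irak3 0.25 ± 0.15 (adjusted p = 0.327) and Sigirr 0.11 ± 0.19 (adjusted p = 0.759).

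Of 20 genes of cytokine processing and release 16 were tested, with a median of 0.95 (0.52 with 21-month replicate 3 alone), and 1 was called higher, against 1.26% of all tested genes; 10 had an unadjusted p under 0.05, against 24.4%. Casp1, the protease that activates interleukin 18 and interleukin 1 beta, rose from 0.591 ± 0.146 to 1.64 ± 0.239 CPM (SD, n = 3), with 27 counts over the 3-month and 127 over the 21-month libraries (log2 1.47 ± 0.29, adjusted p = 0.0426 by edgeR). The 3-month libraries held 9, 7 and 11 counts of Casp1, so it passed the low-count filter because of the later ages. A decrease in Casp1 had little chance of being called. Gsdmd, the pore protein that caspase-1 cuts, had 1.10 ± 0.24 (adjusted p = 0.0545), Aim2, a DNA sensor of inflammasomes, 1.83 ± 0.43 (adjusted p = 0.0595) and Casp4 1.10 ± 0.29 (adjusted p = 0.0710). Aim2, with 15, 10 and 6 counts in the 3-month libraries, also passed the low-count filter because of the later ages. The median of the list includes such genes. Pycard, the inflammasome adaptor ASC, had -0.96 ± 0.27 (adjusted p = 0.0792), with all 21-month libraries below all 3-month libraries. Nlrc4, an inflammasome sensor of bacterial proteins, is named after its values were seen. It had 12.4, 12.1 and 10.5 CPM in the youngest libraries, 113.5, 64.6 and 45.9 at 13 months, and 8.24, 26.7 and 66.6 in the oldest. All 13-month libraries lay above the youngest, and the oldest overlapped both. Its log2 fold change was 2.68 ± 0.64 for the first step (adjusted p = 0.174 by edgeR) and -1.14 ± 0.59 for the second (adjusted p = 0.385). The first was 2.67 when 21-month replicates 1 and 2 were left out. At 21 against 3 months the log2 fold change of Nlrc4 was 1.53 ± 0.62 (adjusted p = 0.168 by edgeR), or 2.51 with replicate 3 alone.

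Of 30 signalling genes all were tested and 0 called by edgeR, against 2.02% of all tested genes, with 13 at an unadjusted p under 0.05, against 24.4%, and a median of 0.012. Jak3, the kinase of the common gamma chain, had 1.61 ± 0.35 (adjusted p = 0.0509), Nfkbiz 0.54 ± 0.14 (adjusted p = 0.0707), Relb, an NF-kB subunit, 0.64 ± 0.18 (adjusted p = 0.0798) and Nfkb2 0.42 ± 0.13 (adjusted p = 0.103). With 21-month replicate 3 alone none of the 7 called genes of these lists was called, with log2 fold changes from 0.73 for Tnfaip3 to 2.65 for Ptprz1, and each of them lost its call under 7 (Socs3) to 13 (Tnfaip3) of its 19 or 20 alternatives.

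**Figure D5:**
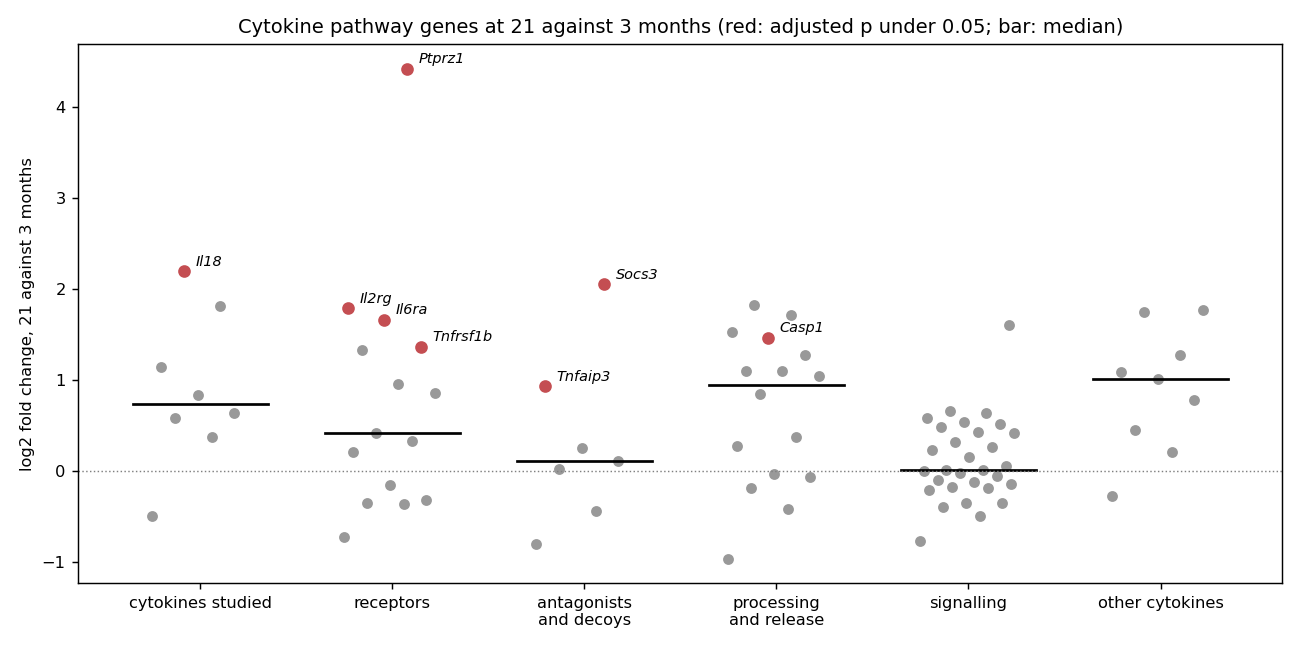
Log2 fold change at 21 against 3 months of every tested gene of 6 lists; red points have an adjusted p under 0.05 and bars mark the list's median. Medians run from 0.012 for signalling to 1.01 for other cytokines, and all 8 red points lie above 0. Some genes of these lists passed the low-count filter because of the later ages.

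Markers of immune cells moved over the same ages. The summed level of 14 macrophage and monocyte markers ran from 93.8 to 112 CPM at 3 months, 102 to 142 at 13 months and 188 to 329 at 21 months, with no marker at 0 in any library, and 6 of the 14 were called higher at 21 against 3 months, against 1.26% of all tested genes (median 1.05). The 13 T and NK cell markers summed to 4.26 to 7.52, 7.97 to 18.1 and 13.7 to 20.7 CPM, with Cd3d at 0 in 3-month replicate 3 and 3 of 11 tested markers called higher, against the same 1.26% (median 1.84). With 21-month replicate 3 alone the median log2 fold change was 0.86 for macrophage and monocyte markers and 1.23 for T and NK cell markers. The 7 epithelial markers summed to 946 to 1041, 613 to 779 and 542 to 903 CPM. Their median was -0.16, or -0.11 with 21-month replicate 3 alone. Of the 7, 0 were called by edgeR, against 2.02% of all tested genes, and 1 had an unadjusted p under 0.05, against 24.4%. Of 6 neutrophil markers 1 had enough counts to be tested and was called higher, against 1.26% of all tested genes, and Ly6g was at 0 in all 9 libraries. The log2 fold change of the tested one was 2.53, or 2.37 with 21-month replicate 3 alone. The 6 neutrophil markers summed to 0.173 to 0.284 CPM at 3 months, so the tested one passed the low-count filter because of the later ages. A decrease in it had little chance of being called. The part of these cells in the levels of Il18 and the other cytokines was not tested.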

How the data were processed

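Raw read counts per Ensembl gene were deposited by the authors for 9 libraries. Per the submitters' processing notes they were made with HISAT2 and featureCounts on GRCm38 (mm10); the versions, the annotation, the strand setting and the handling of multi-mapped reads are not given in the sources used here. Of 53379 identifiers 53274 matched GENCODE M21. Replicates of an age differed beyond counting noise (chi-square per degree of freedom from 3.843 to 554.6), and each was entered as 1 library. This spread does not show whether they came from separate animals.

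Genes were filtered with filterByExpr of edgeR 4.0.16 (minimum count 10, minimum total 15), which left 16067, scaled by TMM and tested with the quasi-likelihood F test over all 9 libraries in R 4.3.3 (6 residual degrees of freedom), with Benjamini-Hochberg adjustment and a threshold of 0.05. Standard errors come from the fold change and the square root of F. These steps were checked on simulated counts. Count ratios used a pseudocount of 0.5 and exact two-sided permutation tests (scipy 1.17.1). Alternatives used DESeq2 1.42.0, limma 3.58.1 and the settings named at the end.

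The members and gene lists were chosen with earlier results of these data known. Named genes are the 10 cytokines, every called gene of the 5 pathway lists with up to 4 others per list of smallest p at 21 against 3 months, and the 5 genes most like Il18 and Il33 (average log2 CPM of at least 1, no predicted or clone names, no immunoglobulin segments). Il18r1, Il18rap, Il1rl1 and Il1rn are named as partners of the cytokines.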

Additional observations from a re-analysis of the deposited data

How the results depend on the processing

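The count of cytokine genes called higher at 21 against 3 months, 1 as reported, was 3 with DESeq2, 5 with library totals alone, and 0 with limma-voom, with genes kept only if every library had at least 10 counts (which drops Il18), with only the 6 libraries compared and with 21-month replicate 3 alone, and 0 to 1 when 1 library was left out. Library totals alone moved the middle of all tested genes up by 0.608. Over the 20 alternatives 0 to 5597 of all genes were called higher, against 202 as reported, so the cytokine counts are to be read beside that range. The count called lower, 0 as reported, was 1 with DESeq2 and 0 to 1 when 1 library was left out (Il15 without 21-month replicate 3, adjusted p = 0.028 by edgeR). At 21 against 13 months the count higher, 0 as reported, was 2 with library totals alone (Il33 and Csf1). The 2 counts at 13 against 3 months stayed at 0 in all 20 alternatives. In 6 of 9 same-numbered pairs of libraries the correlation of deviations from the age means was under 0.1, and the rest ran from 0.143 to 0.208. The lowest was -0.17, for replicate 3 at 21 against 13 months. The libraries were not paired by number, but these correlations cannot show that no batch is shared. With a replicate block Il18 kept its call (2.19, adjusted p = 0.0285 by edgeR). The calls of Il2rg (0.0561), Ptprz1 (0.0597), Tnfaip3 (0.0625) and Casp1 (0.0534) ended, and 310 genes in all were called higher, against 202 as reported. All genes called higher and lower ran from 0 to 63 and 1 to 172 at 13 against 3 months, 0 to 5597 and 0 to 941 at 21 against 3 months, and 0 to 1233 and 0 to 435 at 21 against 13 months. Signs turned for values that were not called. With library totals alone these were Il15 at 21 against 3 months (0.091) and 21 against 13 months (0.15), Il15ra (0.23) and Il18bp (0.19) at 21 against 3 months; with 21-month replicate 3 alone it was Tnf at 21 against 13 months (-0.58). Leaving out 1 library gave -0.011 to 0.68 for Il1b and -0.0059 to 0.19 for Csf1 at 13 against 3 months, and -0.23 to 0.23 for Il1b, -0.11 to 1.02 for Il34 and -0.037 to 0.85 for Tnf at 21 against 13 months. The log2 ratio of Il1a plus Il1b to Il1rn at 13 against 3 months was 0.13 with a pseudocount of 1 and -0.69 to 0.92 leaving out 1 library, and with 21-month replicate 3 alone 0.78 at 21 against 3 months and 0.86 at 21 against 13 months. The ratio of Il33 to Il1rl1 at 21 against 3 months was 0.038 with replicate 3 alone and -0.53 to 0.27 leaving out 1 library, and at 21 against 13 months -0.13 to 0.67. That of Csf1 to Il34 was -0.30 to 0.097 at 13 against 3 months, -0.32 to 0.35 at 21 against 3 months (-0.13 with replicate 3 alone) and -0.20 to 0.46 at 21 against 13 months (-0.011 with replicate 3 alone). The cause of these differences was not tested. Of the named genes not called at 21 against 3 months, 13 were called when 1 library was left out, 11 of them without 21-month replicate 3. Many of the named genes were picked for a small p in this comparison. Over all genes, leaving out 1 library gave up to 1408 called higher and up to 941 lower, against 202 and 123 as reported. Depth limits the sparse genes, among them Il1a, Il1b, Il6, Tnf and Il18, with at most 49 counts in a library.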

Other observations

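Among 31 other cytokine genes 9 had enough counts to be tested and 0 were called at 21 against 3 months by edgeR, against 2.02% of all tested genes, with 5 at an unadjusted p under 0.05, against 24.4%, and a median log2 fold change of 1.01 (0.60 with 21-month replicate 3 alone). Clcf1 and Fasl, with 10 and 15 counts over the 3-month libraries, were among those that passed the low-count filter because of the later ages. A decrease in such genes had little chance of being called, and a positive median was partly set by the filter. Il16, which attracts CD4 T cells, had means of 3.99 ± 0.377, 4.73 ± 0.112 and 8.04 ± 2.72 CPM (SD, n = 3) from the youngest to the oldest age (log2 at 21 against 3 months 1.01 ± 0.23, adjusted p = 0.0559 by edgeR). Clcf1, of the interleukin 6 family, had a log2 fold change of 1.75 ± 0.49 (adjusted p = 0.0798), Tnfsf10, the gene of the death ligand TRAIL, 0.78 ± 0.25 (adjusted p = 0.107) and Fasl, the ligand of Fas, 1.09 ± 0.39 (adjusted p = 0.135). Il17a, Il36a, Il36b and Il36g had no count in any library.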
